A study of Arabidopsis thaliana with 20 samples.

Results

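The 44 genes described here encode xyloglucan endotransglucosylase/hydrolases (XTH) and expansins, secreted proteins of the plant cell wall. They were picked by gene identifier from the 37336 genes of the count table, with earlier results of these data known, so that their shares set against all genes are descriptions. The set holds 26 XTH genes, among them XTH22, also named TCH4, and 18 expansin genes, of which 12 are alpha-expansins (EXPA), 2 beta-expansins (EXPB), 3 expansin-like A (EXLA) and 1 expansin-like B (EXLB). RNA was sequenced from leaves of 6-week-old wild-type Columbia-0 Arabidopsis plants in the vegetative stage, with 5 biological replicates in each of 4 groups and 4 leaves from different plants in each replicate. The non-infiltrated leaves received nothing. The remaining leaves were filled through a syringe without a needle with about 40 µL of water, of SWNTs at 50 ng/µL or of PEI-SWNTs at 50 ng/µL, and were collected 2 days later. SWNTs were pristine single-walled carbon nanotubes with single-stranded RNA against a fluorescent protein adsorbed to them. PEI-SWNTs were nanotubes that carried the cationic polymer polyethyleneimine and a plasmid for the expression of that protein. Every infiltrated group shared the infiltration itself, and between the nanotube groups surface and cargo changed together and cannot be told apart.

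The primary wall of a growing leaf cell is a network of cellulose microfibrils joined by xyloglucan and embedded in pectin. XTH enzymes cut xyloglucan chains and join the cut end to another chain or to water, so that the network can be rearranged or taken apart. Expansins loosen the contacts between wall polymers without cutting them and work best at the acidic pH that plasma membrane proton pumps produce. Both families are known for cell expansion in leaves, and single members respond to touch, auxin, brassinosteroids or submergence. XTH22 was first isolated as a touch-induced gene, which gave it the name TCH4. The expansin-like EXLA and EXLB proteins are placed in the superfamily by sequence, and a wall-loosening activity is not established for them.

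Between 13387714 and 29737496 counts fell on genes per sample, with 23138648 to 29737496 in the non-infiltrated and 13387714 to 21943422 in the PEI-SWNT group, which do not overlap. The scaling factors for library composition ran from 0.948 to 1.05, and the part of depth in the results was not tested. The 4 leaf mesophyll markers (RBCS1A, LHCB1.1, RCA and CA1) summed to between 9245 and 16250 RPKM, where RPKM are counts scaled to exon length and library size. Markers of roots, dividing cells and flowers did not reach an average of 1 RPKM (0 of 4 in each list), and the root markers COBL9, CASP1 and MYB36 had no count in any sample. SWNTs replicates 3 and 4 lay closer together (29.3 on the log2 scale over 16288 genes) than any other pair of replicates of a group (36.7 or more), and results that rest on them are also given with both merged into 1 sample. An average of at least 1 RPKM over the 20 samples was required for a test, which 33 of the 44 genes passed: 19 XTH genes and 14 expansin genes. Because the average runs over all groups, a gene that is high in 1 group only can pass through that group, and counts over the 33 genes are descriptions. Each pair of groups was compared with the quasi-likelihood test of edgeR (n = 5 per group), its p-values adjusted after Benjamini and Hochberg across 16288 genes, and a gene is said to have risen or fallen, or is called, at an adjusted p under 0.05 and a change of at least 2-fold. In leaf samples, fewer cells of a type and less RNA per cell cannot be told apart.

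At the level of the families, the summed RPKM of the 26 XTH genes was 818 ± 242 (SD, n = 5) in non-infiltrated leaves, 1071 ± 136 in water-infiltrated leaves, 1113 ± 89.9 with SWNTs and 1105 ± 87.1 with PEI-SWNTs. The non-infiltrated samples ran from 501 to 1166 and overlapped each infiltrated group. Much of that spread belonged to XTH24, the MERI5 gene, which took 53.2 to 577 RPKM of the sum in these 5 samples. XTH24 was left out of a second sum because of this spread, so the ranges without it are descriptions. That sum was 512 ± 60.6 without infiltration, 769 ± 56.7 with water, 813 ± 71.0 with SWNTs and 633 ± 138 with PEI-SWNTs. Without XTH24, the water (694 to 854) and SWNT samples (691 to 879) all lay above the non-infiltrated ones (448 to 588), while the PEI-SWNT samples (480 to 792) spanned both ranges. The 18 expansin genes summed to 225 ± 40.9, 267 ± 34.3, 266 ± 8.41 and 241 ± 44.6 RPKM in the same order of groups, with ranges that overlapped throughout. These sums are carried by few genes: XTH24, XTH4, XTH6 and XTH22 averaged 345, 175, 161 and 123 RPKM over the 20 samples, and the highest expansins, EXPA1 and EXPA6, 53.8 and 42.3 RPKM.

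**Figure D1:**
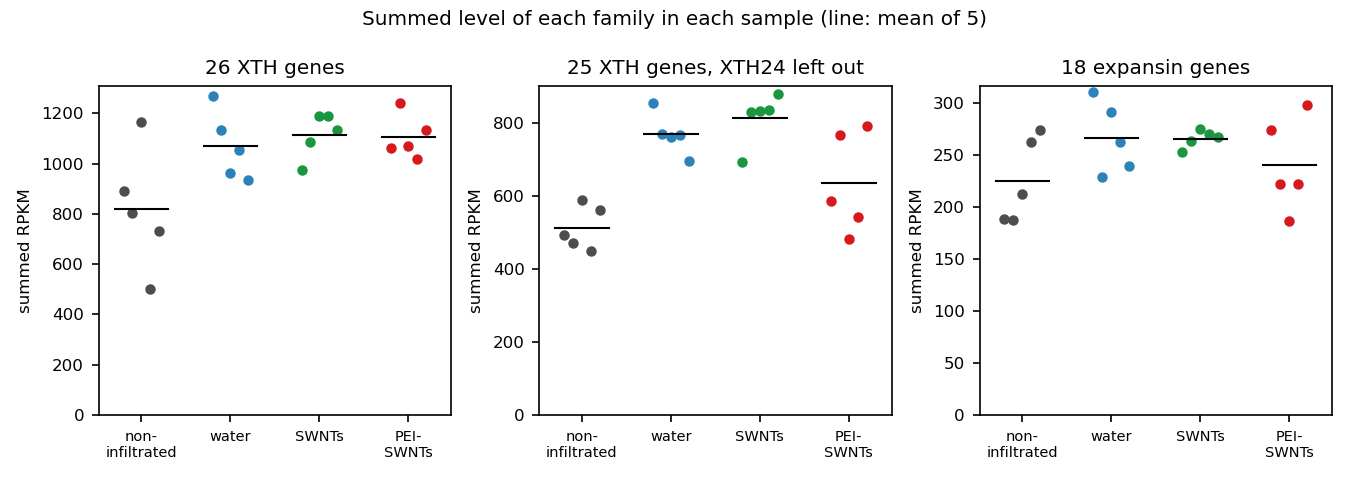
Summed RPKM (y axis) of the 26 XTH genes, of 25 XTH genes without XTH24 and of the 18 expansin genes in each of 20 leaf samples (points) by group (x axis), with the mean of 5 as a line. Without XTH24, left out because of its spread in non-infiltrated leaves, the water (694 to 854) and SWNT samples (691 to 879) lie above the non-infiltrated ones (448 to 588). The expansin sums overlap in all groups.

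The comparison of water-infiltrated with non-infiltrated leaves addresses the infiltration itself. After water infiltration 4 XTH genes (XTH23, XTH18, XTH22 and XTH33) and the expansin-like gene EXLA1 rose, by 2.27- to 6.12-fold, whereas XTH32 and the alpha-expansin gene EXPA16 fell. The 5 genes that rose were 15.2% of the 33 tested, against 2.61% of all 16288 genes, and the 2 that fell were 6.06%, against 1.90%. Irrespective of the fold, 11 of the 33 genes were higher and 6 lower at an adjusted p under 0.05, against 16.4% of all genes in each direction. The median log2 fold change of the 33 genes was 0.22, and that of all genes 0.0028. The median size of the change, whatever its sign, was 0.54 on the log2 scale for the 33 genes and 0.19 for all genes.

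XTH23 (AT4G25810, chr4:13128394-13129927, plus strand), which acts with XTH19 in lateral root growth, had 0.967, 0.689, 2.83, 0.151 and 1.43 RPKM without infiltration, 14.2, 6.37, 7.07, 4.64 and 5.42 with water, 18.1, 7.41, 15.0, 13.1 and 6.32 with SWNTs and 11.4, 17.5, 8.79, 8.70 and 17.5 with PEI-SWNTs, replicates 1 to 5 in this order. All 15 infiltrated samples were above all 5 non-infiltrated samples, and water replicate 1 stood well above the other water samples. The log2 fold change in water-infiltrated leaves was 2.61 (standard error 0.47, adjusted p = 4.7e-04). XTH18 (AT4G30280, chr4:14825757-14827211, minus strand), known for root elongation, had 0.526, 1.06, 0.533, 0.491 and 0.913 RPKM without infiltration, 2.92, 2.85, 2.95, 4.54 and 1.03 with water, 6.19, 3.79, 4.34, 4.41 and 4.14 with SWNTs and 4.62, 5.22, 3.38, 2.12 and 5.74 with PEI-SWNTs. Only water replicate 5 lay inside the non-infiltrated range, and the rise after water was 1.99 (standard error 0.34, adjusted p = 3.1e-04) on the log2 scale. XTH22, the touch gene TCH4 (AT5G57560, chr5:23307006-23308680, minus strand), was far more abundant, with 16.4, 66.2, 67.4, 36.1 and 56.4 RPKM without infiltration, 98.6, 99.5, 113, 186 and 52.9 with water, 174, 174, 181, 178 and 149 with SWNTs and 131, 274, 74.1, 81.1 and 245 with PEI-SWNTs. Here water replicate 5 was again the lowest water sample and overlapped the non-infiltrated range, whereas the SWNT and PEI-SWNT samples all lay above it. Its rise after water was 1.18 (standard error 0.39, adjusted p = 0.0256). That call was lost without non-infiltrated replicate 1 (0.97, adjusted p = 0.0520) or 4 (1.101, adjusted p = 0.0575) and without water replicate 4 (0.91, adjusted p = 0.0862). XTH22 and EXLA1 are shown in every sample because of these values, outside the rule for the other genes.

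EXLA1 (AT3G45970, chr3:16896166-16897308, plus strand) shares 2.07% of its exon length with a gene of the other strand and was the only expansin-family gene that rose in any infiltrated group against non-infiltrated leaves. It had 9.23, 14.1, 23.1, 14.0 and 20.9 RPKM without infiltration, 36.9, 35.3, 45.1, 51.1 and 29.5 with water, 45.9, 52.8, 67.5, 67.5 and 63.0 with SWNTs and 41.8, 50.0, 23.5, 26.6 and 53.5 with PEI-SWNTs. No infiltrated sample reached down to the non-infiltrated maximum, and the SWNT group had the highest mean. After water infiltration it rose by 1.28 (standard error 0.24, adjusted p = 7.1e-04), a 2.43-fold change. XTH33 (AT1G10550, chr1:3479066-3481041, minus strand), an XTH with a membrane anchor, went from 0.878 ± 0.604 RPKM (SD, n = 5) to 3.23 ± 1.62 with water. Its water samples (1.78 to 5.63) lay just above the non-infiltrated ones (0.228 to 1.77), with a log2 change of 1.86 (standard error 0.45, adjusted p = 0.00403).

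**Figure D2:**
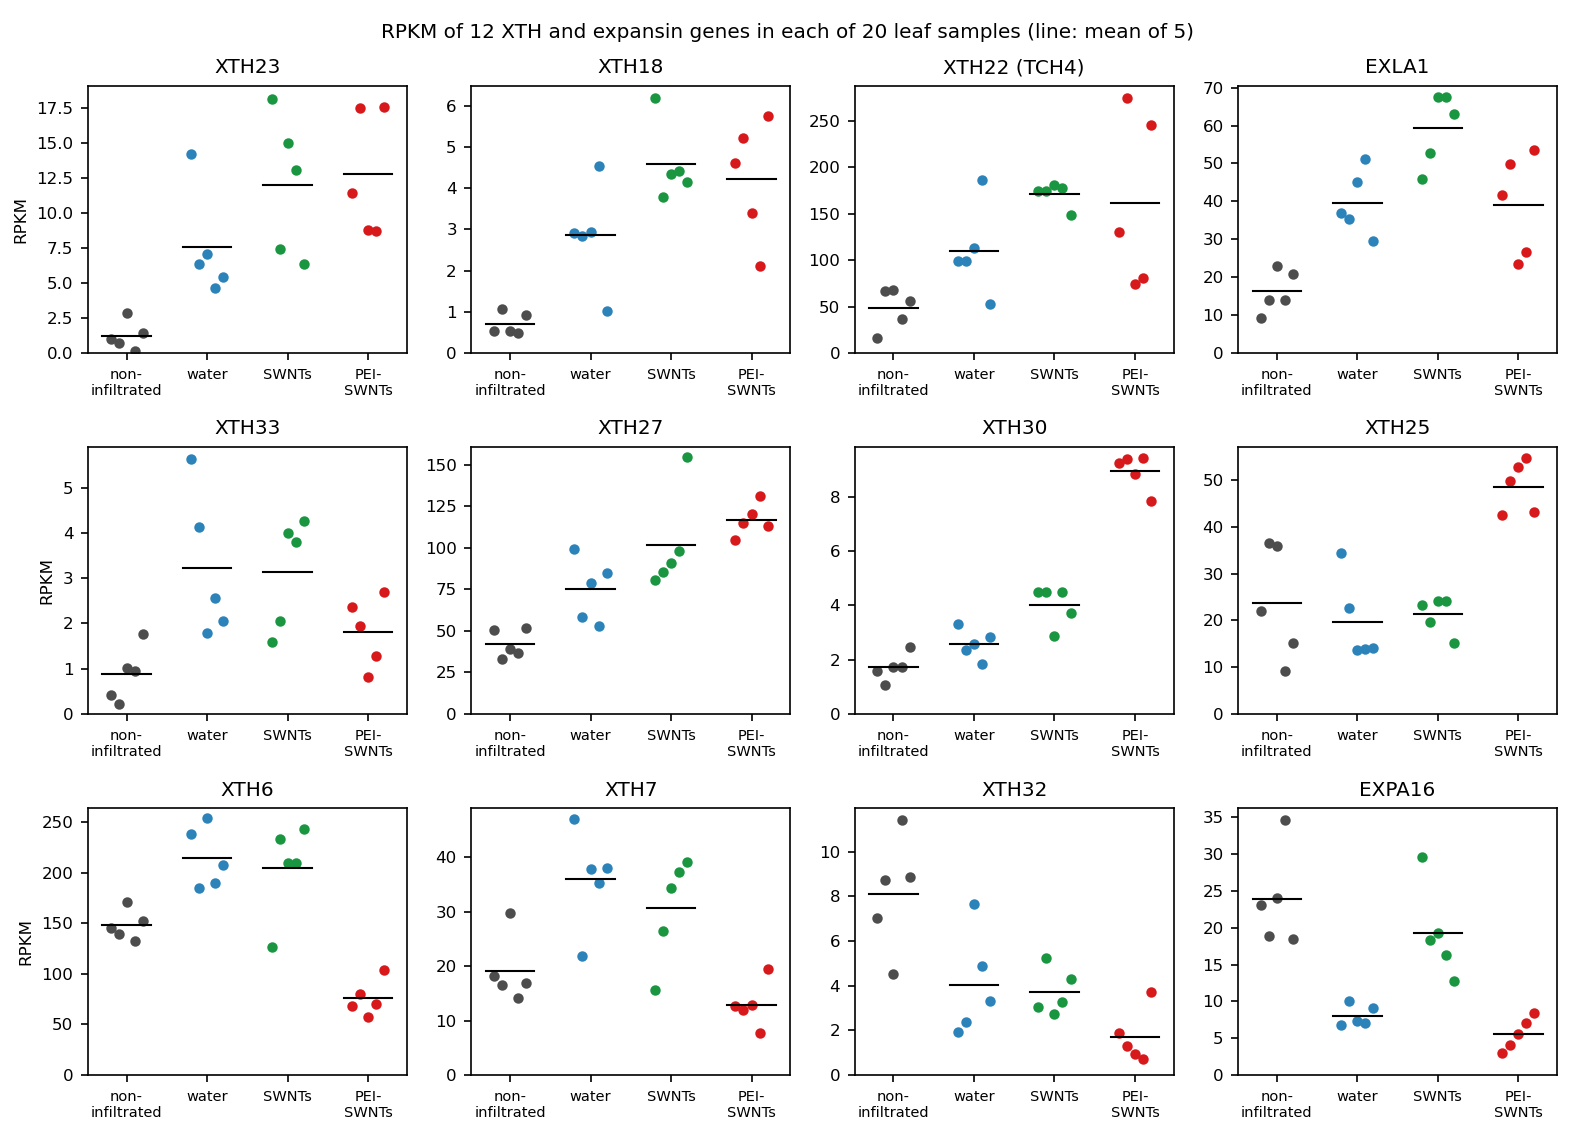
RPKM (y axis) of 12 XTH and expansin genes in each of 20 leaf samples (points) by group (x axis), with the mean of 5 as a line. The genes of the upper row are lowest in non-infiltrated leaves, XTH30 climbs from 1.72 to 8.94 RPKM on average between the non-infiltrated and the PEI-SWNT group, XTH25 is raised in the PEI-SWNT group only, and XTH6 and XTH7 are lowest there.

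XTH18, XTH22, XTH23 and EXLA1 were also the 4 genes that rose in all 3 infiltrated groups, and the 250 bases before their annotated starts are shown for that reason. The 3 comparisons share the non-infiltrated samples, and the share of all genes that rose in all 3 was not counted. The sequences are RefSeq's, read from the TAIR10.1 assembly on the strand of each gene, 5′ to 3′, and hold no exon of another gene. They lie at chr4:14827212-14827461 (minus strand), chr5:23308681-23308930 (minus strand), chr4:13128144-13128393 (plus strand) and chr3:16895916-16896165 (plus strand). Capitals mark the only matches in each to the exact letters searched: the W-box (TTGACC or TTGACT, read here from the other strand) at base −103 of XTH18 and −235 of XTH22, the brassinosteroid element CGTGTG at −94 of XTH23 and the CGCG-box ACGCGT, a calmodulin-binding factor motif, at −135 of EXLA1. The CGCG-box was searched as ACGCGT only, and other forms of it are not marked or counted.
XTH18: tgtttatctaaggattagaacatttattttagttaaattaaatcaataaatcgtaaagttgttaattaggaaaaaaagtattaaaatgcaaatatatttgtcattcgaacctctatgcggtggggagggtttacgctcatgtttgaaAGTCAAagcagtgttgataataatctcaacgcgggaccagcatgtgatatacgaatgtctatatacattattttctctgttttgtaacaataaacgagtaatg
XTH22: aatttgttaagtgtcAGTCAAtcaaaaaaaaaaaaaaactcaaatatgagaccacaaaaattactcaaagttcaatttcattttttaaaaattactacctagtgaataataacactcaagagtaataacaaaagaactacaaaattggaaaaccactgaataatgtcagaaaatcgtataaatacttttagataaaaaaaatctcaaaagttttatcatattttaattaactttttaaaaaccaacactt
XTH23: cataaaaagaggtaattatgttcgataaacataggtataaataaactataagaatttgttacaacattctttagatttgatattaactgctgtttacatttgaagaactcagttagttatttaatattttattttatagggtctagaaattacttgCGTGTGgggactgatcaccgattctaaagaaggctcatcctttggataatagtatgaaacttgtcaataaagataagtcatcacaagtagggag
EXLA1: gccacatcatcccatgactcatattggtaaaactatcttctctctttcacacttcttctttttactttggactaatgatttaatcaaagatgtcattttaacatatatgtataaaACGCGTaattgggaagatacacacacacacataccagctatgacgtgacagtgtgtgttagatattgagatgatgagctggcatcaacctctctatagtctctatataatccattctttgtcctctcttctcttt

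None of the motifs searched was found in all 4 of these windows. Over the 44 promoters and on both strands, the W-box was in 9 (20.5%), against 28.4% of 27443 promoters of the same length. The brassinosteroid element (CGTGTG or CGTGCG), a site of the factor BZR1, was in 7 (15.9%), against 6.71%, and besides XTH23 these were XTH8, XTH25, EXPA1, EXPA6, EXLA2 and EXPB3. The auxin response element TGTCTC was in 4 (9.09%, against 10.9%) and the CGCG-box in 2 (4.55%, against 1.67%), EXLA1 and its neighbour EXLA3. The G-box CACGTG (6.49% of all promoters) and the GCC-box GCCGCC (1.87%) were in 0 of the 44. These letters describe the windows and not binding.

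Against these rises stood 2 falls after water infiltration. EXPA16 (AT3G55500, chr3:20574752-20576249, minus strand), an alpha-expansin, had 23.1, 18.9, 24.1, 34.7 and 18.5 RPKM without infiltration, 6.73, 10.1, 7.30, 7.09 and 9.12 with water, 29.6, 18.4, 19.3, 16.3 and 12.8 with SWNTs and 2.997, 4.03, 5.63, 7.02 and 8.43 with PEI-SWNTs. The water samples all lay below the non-infiltrated ones, the SWNT samples overlapped the non-infiltrated ones, and the PEI-SWNT samples overlapped those with water from below. It fell by 1.56 (standard error 0.25, adjusted p = 1.5e-04) on the log2 scale after water. XTH32 (AT2G36870, chr2:15472607-15474828, minus strand), of the XTH subgroup with predicted hydrolase activity, had 7.02, 8.74, 4.51, 11.4 and 8.85 RPKM without infiltration, 1.93, 2.35, 7.68, 4.89 and 3.32 with water, 3.05, 5.22, 2.74, 3.28 and 4.29 with SWNTs and 1.86, 1.29, 0.939, 0.699 and 3.73 with PEI-SWNTs. Its water samples overlapped the non-infiltrated ones through replicates 3 and 4, and the fall was −1.02 (standard error 0.38, adjusted p = 0.0449). This call was past the threshold by little. It was lost without non-infiltrated replicate 1, 2, 4 or 5 and without water replicate 1, 2, 4 or 5 (log2 fold change from −1.102 to −0.84, adjusted p up to 0.113), and with SWNTs replicates 3 and 4 merged (adjusted p = 0.0519). Calls were gained for XTH16 without non-infiltrated replicate 1, 2 or 3 or water replicate 1 or 3 (−1.20 to −1.01) and for XTH7 without non-infiltrated replicate 3 (1.13) or water replicate 2 (1.05).

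In SWNT treated leaves the set of genes that rose was wider: the 5 genes raised by water rose here too, joined by XTH27, XTH30 and XTH19, so that 7 XTH genes and EXLA1 were higher than in non-infiltrated leaves. XTH32, XTH5 and EXPA9 fell. The 8 higher genes were 24.2% of the 33 tested, against 4.82% of all genes, and the 3 lower ones 9.09%, against 2.09%. At an adjusted p under 0.05 and any fold, 13 were higher and 6 lower, against 21.6% and 20.3% of all genes. The median log2 fold change of the 33 genes was 0.083 and its median size 0.68, while the values for all genes were −0.0066 and 0.22. These counts and those for water infiltration share the same 5 non-infiltrated samples.

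XTH23 rose by 3.27 (standard error 0.48, adjusted p = 2.7e-05) on the log2 scale, a 9.66-fold change. For XTH18 the rise was 2.68 (standard error 0.34, adjusted p = 6.8e-06) and for XTH22 1.82 (standard error 0.40, adjusted p = 0.00120). EXLA1 reached its highest levels of all groups and rose by 1.86 (standard error 0.25, adjusted p = 1.0e-05). XTH33 went to 3.13 ± 1.23 RPKM, and overlapped the non-infiltrated group (1.58 to 4.25 against 0.228 to 1.77), with a log2 change of 1.81 (standard error 0.45, adjusted p = 0.00343). XTH27, known for tertiary vein development in leaves, went from 42.2 ± 8.52 to 102 ± 30.1 RPKM, with every SWNT sample (80.5 to 155) above every non-infiltrated one (32.9 to 51.8). Its log2 fold change was 1.27 (standard error 0.19, adjusted p = 2.7e-05). With water, every XTH27 sample also lay above every non-infiltrated one, without passing the call, and the SWNT samples overlapped the water samples. XTH19 (AT4G30290, chr4:14828712-14830224, minus strand), raised by shade in petioles, had 2.36 to 9.47 RPKM in non-infiltrated and 7.62 to 14.3 in SWNT treated leaves. These ranges overlapped through non-infiltrated replicate 3, at 9.47 RPKM, and the rise was 1.22 (standard error 0.38, adjusted p = 0.0151).

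XTH30 (AT1G32170, chr1:11575320-11578030, plus strand), an XTH linked to the salt response of Arabidopsis, had 1.57, 1.07, 1.74, 1.74 and 2.47 RPKM without infiltration, 3.32, 2.34, 2.57, 1.86 and 2.83 with water, 4.50, 4.48, 2.88, 4.49 and 3.73 with SWNTs and 9.22, 9.38, 8.84, 9.41 and 7.83 with PEI-SWNTs. The SWNT samples lay above the non-infiltrated ones and overlapped the water samples through replicate 3, and the 5 PEI-SWNT samples lay above all others. With SWNTs it rose by 1.22 (standard error 0.18, adjusted p = 3.7e-05) against non-infiltrated leaves. Among the genes that fell, XTH5 (AT5G13870, chr5:4474922-4477090, minus strand) had 6.35, 5.95, 6.34, 5.12 and 5.05 RPKM without infiltration, 3.95, 5.11, 2.96, 4.34 and 2.53 with water, 2.19, 2.12, 2.70, 2.56 and 2.96 with SWNTs and 2.66, 2.06, 3.32, 2.76 and 2.06 with PEI-SWNTs. Its SWNT and PEI-SWNT samples lay below the non-infiltrated range, and the water samples spanned the gap. The fall with SWNTs was −1.20 (standard error 0.17, adjusted p = 2.2e-05). EXPA9, an alpha-expansin of low level, went from 1.61 ± 0.365 to 0.793 ± 0.230 RPKM, with no overlap and a log2 change of −1.01 (standard error 0.23, adjusted p = 0.00193). XTH32 fell by 1.12 on the log2 scale (standard error 0.38, adjusted p = 0.0241).

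The falls of EXPA9 and XTH32 stood close to the thresholds. EXPA9 was under 2-fold without non-infiltrated replicate 5 (−0.86), SWNTs replicate 3 (−0.87) or SWNTs replicate 4 (−0.97), and with these SWNTs replicates merged (−0.95). XTH32 was not called without non-infiltrated replicate 4 (−0.97, adjusted p = 0.0615), without SWNTs replicate 1, 3 or 4 (−1.08 to −1.03, adjusted p up to 0.0591), or with SWNTs replicates 3 and 4 merged (adjusted p = 0.0517). Without non-infiltrated replicate 3 the number of lower genes went from 3 to 5, with EXPA5 (−1.07) and XTH16 (−1.13). XTH16, an XTH of the petiole shade response, was also called without non-infiltrated replicate 1 or 2 or SWNTs replicate 2, 3 or 4 (−1.09 to −1.01), and with SWNTs replicates 3 and 4 merged (−1.01, adjusted p = 0.0152).

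**Figure D3:**
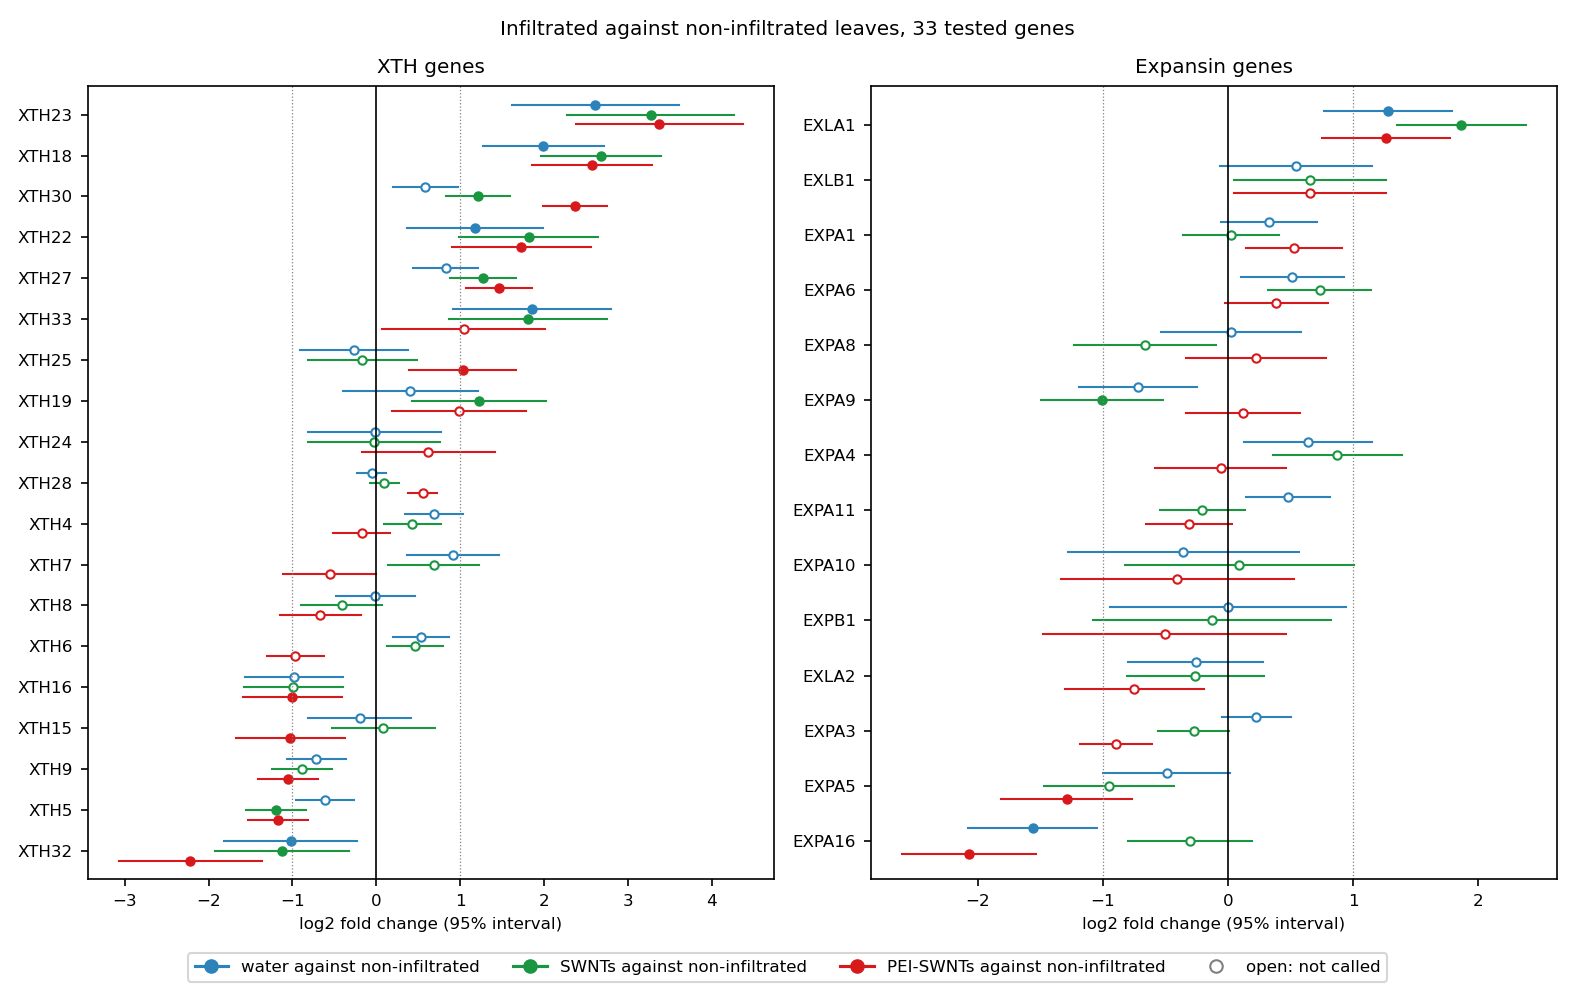
Log2 fold change (x axis) with its 95% interval for the 33 tested XTH (left) and expansin genes (right) in water-infiltrated, SWNT treated and PEI-SWNT treated leaves against non-infiltrated leaves, with filled points for genes that passed the adjusted p and the 2-fold minimum. XTH23, XTH18, XTH22 and EXLA1 are filled on the right in all 3 groups, XTH32 on the left in all 3, and XTH30 moves outward from 0.59 with water to 2.37 with PEI-SWNTs.

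With PEI-SWNTs, as many genes fell as rose. XTH23, XTH18, XTH22, EXLA1, XTH27 and XTH30 were again higher than in non-infiltrated leaves and XTH25 joined them, whereas XTH5, XTH9, XTH15, XTH16, XTH32 and the alpha-expansin genes EXPA5 and EXPA16 fell. The 7 genes in each direction were 21.2% of the 33 tested, against 8.47% of all genes higher and 6.29% lower. At any fold, 10 were higher and 11 lower at an adjusted p under 0.05, where the shares of all genes were 30.4% and 31.2%. The median log2 fold change was −0.060 for the 33 genes and −0.022 for all genes, and its median size 0.96 against 0.34. Within the families, the 19 XTH genes had 6 higher and 5 lower and the 14 expansin genes 1 higher and 2 lower.

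XTH23 was 10.4-fold higher, a log2 change of 3.38 (standard error 0.48, adjusted p = 5.5e-06). XTH18 rose by 2.57 (standard error 0.34, adjusted p = 2.7e-06), XTH22 by 1.73 (standard error 0.39, adjusted p = 8.4e-04) and EXLA1 by 1.27 (standard error 0.25, adjusted p = 1.8e-04). The PEI-SWNT samples of these genes were spread widely, with replicates 2 and 5 the highest of XTH22 (274 and 245 RPKM) and replicates 3 and 4 the lowest (74.1 and 81.1 RPKM). EXLA1, XTH18 and XTH23 also had replicates 3 and 4 as their lowest PEI-SWNT samples. XTH30 rose 5.17-fold, by 2.37 (standard error 0.18, adjusted p = 1.7e-09), and its 5 PEI-SWNT samples (7.83 to 9.41 RPKM) were close together. XTH27 rose by 1.47 (standard error 0.19, adjusted p = 1.5e-06), to 117 ± 9.83 RPKM.

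XTH25 (AT5G57550, chr5:23304782-23306440, minus strand), the neighbour of XTH22, had 22.1, 36.6, 35.9, 9.19 and 15.2 RPKM without infiltration, 34.4, 22.7, 13.6, 14.0 and 14.2 with water, 23.2, 19.6, 24.1, 24.2 and 15.2 with SWNTs and 42.5, 49.8, 52.8, 54.8 and 43.1 with PEI-SWNTs. The PEI-SWNT samples lay above every other sample, and the non-infiltrated samples were spread from replicate 4 to replicate 2 over a 3.98-fold range. Compared with non-infiltrated leaves, its log2 change was 1.03 (standard error 0.31, adjusted p = 0.00678). It was under 2-fold without non-infiltrated replicate 1 (0.98), 4 (0.80) or 5 (0.90) and without PEI-SWNTs replicate 2 (0.996), 3 (0.97) or 4 (0.96), with an adjusted p of at most 0.0211 in each. XTH33, at 1.82 ± 0.771 RPKM, and XTH19, at 9.28 ± 3.88 RPKM, missed the call with 1.05 (standard error 0.46, adjusted p = 0.0576) and 0.99 (standard error 0.38, adjusted p = 0.0319). XTH33 was called without non-infiltrated replicate 5 (1.48) or PEI-SWNTs replicate 3 (1.19) and by DESeq2 (1.05, adjusted p = 0.0347). XTH19 was called without non-infiltrated replicate 3 (1.42) or 4 (1.08) and without PEI-SWNTs replicate 2 (1.05) or 4 (1.14).

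The largest fall among the 33 tested genes was that of XTH32, 4.65-fold, with −2.22 (standard error 0.41, adjusted p = 1.1e-04) and every PEI-SWNT sample (0.699 to 3.73 RPKM) below every non-infiltrated one (4.51 to 11.4). EXPA16 followed with −2.07 (standard error 0.26, adjusted p = 1.0e-06). EXPA5, an alpha-expansin of brassinosteroid-dependent growth, went from 17.4 ± 3.79 to 7.04 ± 3.73 RPKM with −1.29 (standard error 0.25, adjusted p = 1.9e-04), and PEI-SWNTs replicate 5 (13.5 RPKM) alone overlapped the non-infiltrated range. XTH9, known from shoot apices and stem wood, fell from 16.9 ± 1.88 to 8.17 ± 1.099 RPKM without overlap (−1.05, standard error 0.17, adjusted p = 3.0e-05). XTH5 fell by 1.17 on the log2 scale (standard error 0.17, adjusted p = 8.4e-06).

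XTH15 and XTH16, both of the petiole shade response, fell by little more than 2-fold. XTH15 went from 3.28 ± 0.778 to 1.58 ± 0.932 RPKM with −1.02 (standard error 0.31, adjusted p = 0.00780). A gene read from the other strand covers 31.65% of its exon length, and a strand setting of the counting is not given in the sources used here, so its reads may be shared. It was under 2-fold without non-infiltrated replicate 3 (−0.96) or 5 (−0.95) and without PEI-SWNTs replicate 1 (−0.84), 2 (−0.98) or 3 (−0.93). XTH16 went from 11.2 ± 3.60 to 5.56 ± 1.91 RPKM with −1.001 (standard error 0.28, adjusted p = 0.00465), and was under 2-fold without non-infiltrated replicate 4 (−0.91) or 5 (−0.87) and without PEI-SWNTs replicate 1 (−0.996), 2 (−0.95) or 3 (−0.90). Genes just short of the fold minimum were called in some of these fits: XTH6 (−0.96 with all samples) without non-infiltrated replicate 4 (−1.03) or PEI-SWNTs replicate 2 (−1.01) or 5 (−1.13), EXPA3 (−0.90) without PEI-SWNTs replicate 1 (−1.05), and EXLA2 (−0.75) without PEI-SWNTs replicate 5 (−1.12).

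Between SWNT treated and water-infiltrated leaves the XTH and expansin genes differed least. EXPA16 rose with SWNTs and was the only gene called, 3.03% of the 33 tested against 1.23% of all genes. It was 2.39-fold higher, with 1.26 (standard error 0.25, adjusted p = 0.00221), and all 5 SWNT samples (12.8 to 29.6 RPKM) lay above all 5 water samples (6.73 to 10.1). None of the 33 fell (0 by edgeR and 0 by DESeq2, against 0.289% of all genes), although 4 were lower at an unadjusted p under 0.05. Irrespective of the fold, 2 were higher and 3 lower at an adjusted p under 0.05, against 7.52% and 6.14% of all genes. XTH30 was the other higher gene, with 0.63 (standard error 0.18, adjusted p = 0.0245). The median log2 fold change of the 33 genes was −0.010 and its median size 0.29, and for all genes 0.0090 and 0.14. For the genes raised by infiltration the differences between these groups did not pass: 0.66 for XTH23 (95% interval −0.21 to 1.52, adjusted p = 0.330), 0.69 for XTH18 (0.047 to 1.33, adjusted p = 0.149), 0.64 for XTH22 (−0.17 to 1.44, adjusted p = 0.307) and 0.58 for EXLA1 (0.086 to 1.08, adjusted p = 0.113), on the log2 scale, intervals that reach above a 2-fold rise.

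PEI-SWNT treated leaves differed from both other infiltrated groups in the same direction for 5 genes: XTH25 and XTH30 were higher, and XTH6, XTH7 and XTH32 lower. The share of all genes called in both comparisons was not counted. Against water, EXPA3 was lower too. Against SWNTs, EXPA9 was higher and EXPA16 and XTH15 were lower. The 2 higher genes against water were 6.06% of the 33 tested, close to the 6.13% of all genes, and the 4 lower ones 12.1%, against 3.47%. Against SWNTs, the 3 higher were 9.09% and the 5 lower 15.2%, against 3.81% and 2.58% of all genes. At any fold, 5 were higher and 11 lower than with water (27.7% and 24.3% of all genes), and 6 higher and 8 lower than with SWNTs (22.3% and 19.0%). The median log2 fold change of the 33 genes was −0.13 against water and −0.23 against SWNTs, where all genes had −4.4e-04 and 0.0036. These comparisons share the PEI-SWNT samples.

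XTH30 was 3.44-fold above water (1.78 on the log2 scale, standard error 0.18, adjusted p = 1.1e-07) and 2.22-fold above SWNTs (1.15, standard error 0.17, adjusted p = 3.0e-05). Its group means were 1.72 ± 0.502, 2.58 ± 0.545, 4.02 ± 0.713 and 8.94 ± 0.658 RPKM from non-infiltrated leaves to PEI-SWNTs, and the first difference, 0.59 on the log2 scale with an adjusted p of 0.0202, stayed below 2-fold. XTH25 rose by 1.30 (standard error 0.31, adjusted p = 0.00174) against water and 1.19 (standard error 0.31, adjusted p = 0.00455) against SWNTs. It did not pass between water or SWNTs and non-infiltrated leaves, with differences of −0.27 (95% interval −0.91 to 0.38) and −0.17 (−0.81 to 0.48).

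XTH6 (AT5G65730, chr5:26298728-26300529, plus strand), the third XTH gene by level, had 145, 140.1, 172, 132 and 153 RPKM without infiltration, 238, 185, 254, 190.0 and 207 with water, 126, 233, 209, 210.2 and 244 with SWNTs and 68.5, 80.2, 57.0, 70.4 and 104 with PEI-SWNTs. The PEI-SWNT samples were the lowest of all, SWNTs replicate 1 stood apart below the other SWNT samples, and the water samples lay above the non-infiltrated ones. It fell by 1.499 (standard error 0.16, adjusted p = 3.5e-07) on the log2 scale against water and by 1.43 (standard error 0.16, adjusted p = 1.3e-06) against SWNTs. XTH7 (AT4G37800, chr4:17775370-17777445, minus strand) had 18.1, 16.5, 29.8, 14.1 and 16.9 RPKM without infiltration, 47.1, 21.8, 37.8, 35.2 and 38.0 with water, 15.7, 26.6, 34.4, 37.4 and 39.2 with SWNTs and 12.8, 11.9, 12.8, 7.73 and 19.6 with PEI-SWNTs. Its water samples lay above all PEI-SWNT samples, and SWNTs replicate 1 was the only SWNT sample inside the PEI-SWNT range. The differences were −1.47 (standard error 0.27, adjusted p = 1.4e-04) against water and −1.24 (standard error 0.27, adjusted p = 0.00108) against SWNTs. Against non-infiltrated leaves, XTH7 had 0.92 with water (adjusted p = 0.0114), 0.68 with SWNTs (adjusted p = 0.0414) and −0.56 with PEI-SWNTs (adjusted p = 0.0776).

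XTH32 fell by 1.20 on the log2 scale against water (standard error 0.41, adjusted p = 0.0203) and by 1.097 against SWNTs (standard error 0.42, adjusted p = 0.0406), with overlapping samples in both. The first call was lost without water replicate 3 (−0.84, adjusted p = 0.0860). The second was lost without PEI-SWNTs replicate 1, 2, 3 or 4 or SWNTs replicate 2 or 5 (−1.14 to −0.91, adjusted p up to 0.0955). EXPA3, an alpha-expansin, had 12.7 ± 1.91 RPKM with water, 8.97 ± 0.804 with SWNTs and 5.81 ± 1.41 with PEI-SWNTs, and its fall against water was −1.12 (standard error 0.14, adjusted p = 1.7e-06). EXPA16 fell 3.40-fold against SWNTs, by 1.77 (standard error 0.26, adjusted p = 2.2e-05) on the log2 scale, but against water the difference of −0.51 (95% interval −1.05 to 0.034) did not pass. EXPA9, at 1.76 ± 0.338 RPKM, was higher than with SWNTs by 1.13 (standard error 0.24, adjusted p = 8.5e-04), under 2-fold without SWNTs replicate 3 (0.98). XTH15 was lower than with SWNTs by 1.11 (standard error 0.32, adjusted p = 0.00853) on the log2 scale, under 2-fold without PEI-SWNTs replicate 1 (−0.92).

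Leaving out 1 sample also added calls. Against water these were XTH23 without water replicate 1 (1.13), EXPA9 without water replicate 3 (1.05) and, without PEI-SWNTs replicate 5, EXPA5 (−1.22) and XTH15 (−1.22). Against SWNTs they were EXPA4, an alpha-expansin, without PEI-SWNTs replicate 1 (−1.19) or SWNTs replicate 5 (−1.06) and EXPA8 without SWNTs replicate 5 (1.01). The genes raised by infiltration did not pass between PEI-SWNTs and SWNTs: 0.10 for XTH23 (95% interval −0.75 to 0.96, adjusted p = 0.864), −0.11 for XTH18 (−0.74 to 0.52, adjusted p = 0.799), −0.086 for XTH22 (−0.89 to 0.71, adjusted p = 0.880) and −0.60 for EXLA1 (−1.099 to −0.10, adjusted p = 0.0511).

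**Figure D4:**
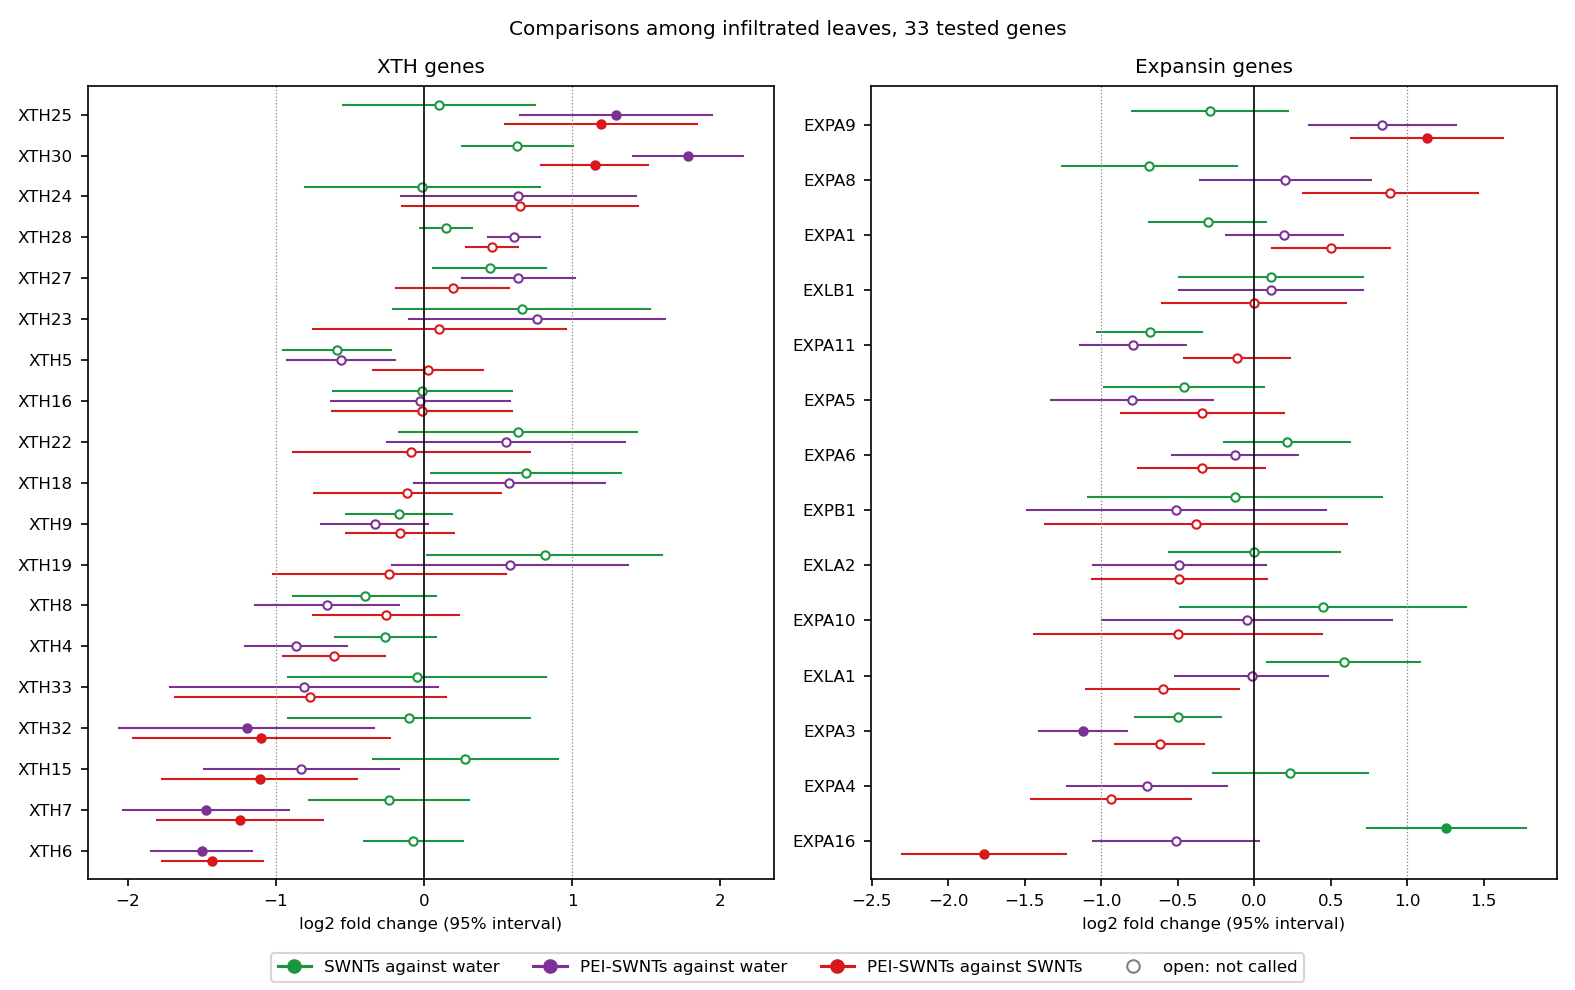
Log2 fold change (x axis) with its 95% interval for the 33 tested XTH (left) and expansin genes (right) in the 3 comparisons among infiltrated leaves, with filled points for genes that passed the adjusted p and the 2-fold minimum. SWNTs against water has EXPA16 as its only filled point, at 1.26, and XTH6, XTH7 and XTH32 are filled to the left in both comparisons of PEI-SWNTs.

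Several XTH genes stand next to each other on 1 strand, and neighbours did not share 1 course. On chromosome 4, XTH24, XTH18 and XTH19 follow each other with gaps of 5161 and 1500 bases. XTH24 (AT4G30270, chr4:14819192-14820595, minus strand) had 398, 333, 577, 53.2 and 169.9 RPKM without infiltration, 416, 366, 204, 287 and 241 with water, 282, 257, 357, 355 and 254 with SWNTs and 474, 477, 589, 476 and 340.2 with PEI-SWNTs. It was the most abundant of the 44 genes, but its non-infiltrated samples ran over a 10.9-fold range and no comparison passed: −0.017 with water (95% interval −0.81 to 0.77), −0.028 with SWNTs (−0.82 to 0.76) and 0.62 with PEI-SWNTs (−0.17 to 1.42), against non-infiltrated leaves. XTH18, next to it, averaged 3.09 RPKM against 345 RPKM over the 20 samples and rose in all 3 groups, while XTH19 passed the call with SWNTs and, against non-infiltrated leaves, missed it with PEI-SWNTs (0.99). On chromosome 5, XTH25 and XTH22 are 565 bases apart. XTH22 rose after every infiltration, and XTH25 rose with PEI-SWNTs alone against non-infiltrated leaves. XTH23 ends 363 bases before XTH14, which had no count in any sample. On chromosome 3, EXLA3 lies 2012 bases from EXLA1 and had 0 to 15 counts per sample, below the level required for a test.

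**Figure D5:**
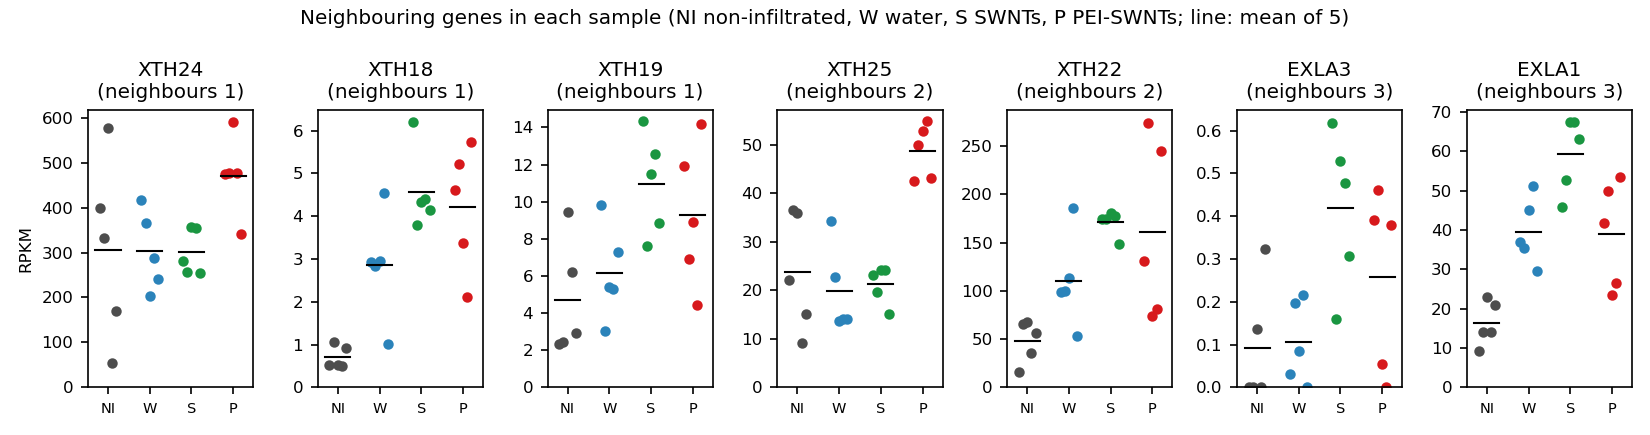
RPKM (y axis) in each of 20 leaf samples (points; line, mean of 5) for neighbouring genes: XTH24, XTH18 and XTH19 on chromosome 4, XTH25 and XTH22 on chromosome 5, and EXLA3 and EXLA1 on chromosome 3. XTH18 and XTH22 are lowest in non-infiltrated leaves (NI), XTH25 stands out with PEI-SWNTs (P), and XTH24 ranges from 53.2 to 577 RPKM in non-infiltrated leaves.

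XTH4 (AT2G06850, chr2:2763449-2765743, plus strand), known from wood formation in stems, was second in level and had 163, 103, 167, 118 and 170.0 RPKM without infiltration, 244, 308, 176, 212 and 225 with water, 179, 203, 201, 196 and 192 with SWNTs and 135, 143, 86.7, 114 and 160.5 with PEI-SWNTs. The water and SWNT samples lay above all non-infiltrated samples, and the PEI-SWNT samples lay within or below the non-infiltrated range. Its differences were below 2-fold, 0.69 with water (adjusted p = 0.00366), 0.43 with SWNTs (adjusted p = 0.0408) and −0.86 between PEI-SWNTs and water (adjusted p = 2.3e-04). XTH28, a gene of stamen filament growth, was at 16.5 ± 1.56 RPKM in non-infiltrated and 24.2 ± 1.62 in PEI-SWNT treated leaves, a difference of 0.55 (standard error 0.083, adjusted p = 1.1e-05) without overlap. Altogether 13 tested genes were called in no comparison: XTH4, XTH8, XTH24, XTH28, EXPA1, EXPA4, EXPA6, EXPA8, EXPA10, EXPA11, EXPB1, EXLA2 and EXLB1. The share of all genes called in no comparison was not counted. Among the 13 are EXPA10, whose loss reduces leaf and petiole growth, and EXPA1, which acts in stomatal opening. EXPA1 had 45.6 ± 14.0 RPKM in non-infiltrated leaves and 57.3 ± 14.2, 46.4 ± 5.35 and 65.7 ± 11.5 with water, SWNTs and PEI-SWNTs.

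Genes whose 5 samples in each of a pair of groups did not overlap can also be counted without regard to the test. With water, 6 of the 33 genes lay wholly above the non-infiltrated samples and 2 wholly below, where 8.61% and 9.18% of all 16288 genes did. With SWNTs these were 8 and 4 (14.3% and 12.7% of all genes) and with PEI-SWNTs 8 and 6 (22.6% and 19.3%). Between SWNTs and water 1 gene, EXPA16, lay above and 2 lay below (6.66% and 5.20%). PEI-SWNT samples lay above those with water for 4 genes and below for 6 (20.2% and 14.7%), and above those with SWNTs for 5 and below for 4 (16.5% and 12.5%). The last are XTH4, XTH6, EXPA3 and EXPA16.

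How much the replicates differed also depended on the group. Over the 33 genes, the median SD of log2 counts scaled to library size was 0.41 without infiltration, 0.39 with water, 0.27 with SWNTs and 0.47 with PEI-SWNTs. The SWNT group had the narrowest spread for 19 of the 33 genes and the PEI-SWNT group the widest for 12, next to 11 for the non-infiltrated group. The shares of all genes with their narrowest or widest spread in each group were not counted. Over all 16288 genes, median distances between replicates were 58.3 in non-infiltrated, 54.8 in water-infiltrated, 48.8 in PEI-SWNT treated and 40.4 in SWNT treated leaves. A distance is another measure than the median SD, so the order of the groups cannot be compared between them. SWNTs replicates 3 and 4, the close pair, belong to the group with the narrowest spread.

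The other 11 genes lay below the level required for a test. XTH14, XTH21 and XTH26 had no count in any of the 20 samples, a result that allows up to 3 counts per sample, and XTH20, known from roots, had 4 counts in all. XTH10 had 1 to 15 counts per sample, XTH17 0 to 9 and EXPA14 0 to 6. EXPB3, a beta-expansin, had 8 to 64 counts. EXPA15 had 63, 45, 20, 66 and 80 counts without infiltration, 17, 18, 12, 13 and 14 with water, 10, 11, 9, 6 and 12 with SWNTs and 4, 4, 0, 3 and 12 with PEI-SWNTs. Every infiltrated sample was below the lowest non-infiltrated count, in groups of unlike depth. Scaled to length and library size, the ranges were 0.522 to 1.90 RPKM in non-infiltrated leaves and 0.351 to 0.673, 0.274 to 0.422 and 0 to 0.394 RPKM in the water, SWNT and PEI-SWNT groups. On that scale the water samples overlapped the non-infiltrated ones, and the SWNT and PEI-SWNT samples lay below them. With no filter on low values, EXPA15 fell by 1.57 on the log2 scale with water (adjusted p = 0.00387), by 1.99 with SWNTs (adjusted p = 5.0e-04) and by 3.03 with PEI-SWNTs (adjusted p = 4.7e-06). XTH31, which like XTH32 has predicted hydrolase activity, had 11, 17, 9, 1 and 13 counts without infiltration, 16, 15, 23, 22 and 27 with water, 12, 19, 28, 15 and 32 with SWNTs and 3, 3, 1, 1 and 3 with PEI-SWNTs. No PEI-SWNT sample exceeded 3 counts, whereas the water and SWNT samples all held 12 or more. In that fit, XTH31 was called higher with water (1.32, adjusted p = 0.0172) and SWNTs (1.55, adjusted p = 0.00423) against non-infiltrated leaves. It was called lower with PEI-SWNTs against non-infiltrated leaves (−1.60, adjusted p = 0.0150), water (−2.92, adjusted p = 5.5e-05) and SWNTs (−3.16, adjusted p = 3.4e-05), fitted sizes that depend on the prior count because no PEI-SWNT sample exceeded 3 counts. The same fit called EXPA15 lower with PEI-SWNTs than with water (−1.46, adjusted p = 0.0165), XTH10 higher with PEI-SWNTs than with water (1.95, adjusted p = 0.00250) and SWNTs (1.38, adjusted p = 0.0290), and EXPB3 lower with PEI-SWNTs than with SWNTs (−1.16, adjusted p = 0.0160).

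The rest of the wall pathway is given from lists of genes chosen beside the 44. Of 13 genes of xyloglucan synthesis, 11 were tested: 0 rose and 0 fell with water, 1 rose and 0 fell with SWNTs, and 0 rose and 2 fell with PEI-SWNTs, each against non-infiltrated leaves. Of all genes, 2.61%, 4.82% and 8.47% rose and 1.90%, 2.09% and 6.29% fell in these comparisons. At an adjusted p under 0.05 and any fold, 5 of the 11 were higher and 0 lower with water, 6 higher and 0 lower with SWNTs and 6 higher and 4 lower with PEI-SWNTs, where 16.4% and 16.4%, 21.6% and 20.3%, and 30.4% and 31.2% of all genes were higher and lower. XXT1, a xylosyltransferase, rose with SWNTs by 1.03 (standard error 0.21, adjusted p = 7.6e-04), and CSLC5, a glucan synthase of the backbone, fell with PEI-SWNTs by 1.41 (standard error 0.21, adjusted p = 1.0e-05) on the log2 scale. XLT2, a galactosyltransferase, fell against water by 1.48 (standard error 0.13, adjusted p = 2.2e-08) and against SWNTs by 1.08 (standard error 0.13, adjusted p = 2.0e-06), each on the log2 scale with PEI-SWNTs. Among the 3 enzymes that trim xyloglucan side chains, the fucosidase gene AXY8 rose with SWNTs (1.44, standard error 0.19, adjusted p = 7.1e-06), and the xylosidase gene XYL1 fell with PEI-SWNTs against water by 1.099 (standard error 0.098, adjusted p = 2.7e-08) on the log2 scale. All 8 tested genes of primary wall cellulose synthesis were lower with PEI-SWNTs than with water and than with SWNTs at an adjusted p under 0.05. Of all genes, 24.3% and 19.0% were. The median log2 fold changes of the 8 were −0.46 and −0.55. Of these, CESA5, a cellulose synthase subunit, passed the 2-fold minimum against SWNTs (−1.005). Against non-infiltrated leaves at any fold, 4 were higher with water, 6 higher with SWNTs and 3 lower with PEI-SWNTs, and 0 went the other way in each.

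Of 7 tested plasma membrane proton pumps, AHA11 alone was called, lower with PEI-SWNTs by 1.52 (standard error 0.12, adjusted p = 1.7e-09) against non-infiltrated leaves on the log2 scale. Of all genes, 6.29% fell in this comparison. AHA11 was also lower than with water (−1.46) and SWNTs (−1.36), and its PEI-SWNT samples (28.7 to 50.8 RPKM) lay below all others (80.3 to 109). At an adjusted p under 0.05 and any fold, 1, 1 and 2 of the 7 pumps were higher with water, SWNTs and PEI-SWNTs against non-infiltrated leaves. In each of these comparisons 4 were lower. Of all genes, 16.4%, 21.6% and 30.4% were higher and 16.4%, 20.3% and 31.2% lower. Brassinosteroids, hormones that raise many XTH and expansin genes, were represented by 11 tested genes of synthesis and signalling. Against non-infiltrated leaves, 1 rose and 2 fell with PEI-SWNTs, where 8.47% of all genes rose and 6.29% fell, and none was called with water or SWNTs. At an adjusted p under 0.05 and any fold, 0, 4 and 3 were higher and 3, 3 and 4 lower with water, SWNTs and PEI-SWNTs. The shares of all genes are those given for the pumps. With PEI-SWNTs, BR6OX2, the enzyme of the last step to brassinolide, rose by 1.48 (standard error 0.19, adjusted p = 1.1e-06), and PRE1, a factor that promotes cell elongation, fell by 1.64 (standard error 0.24, adjusted p = 1.1e-05) on the log2 scale. The 25 XTH and expansin genes outside the 44 summed to 5.98 to 10.002 RPKM per sample, and only XTH11 and EXPA13 were tested. XTH11 fell with water by 1.30 (standard error 0.26, adjusted p = 0.00112) on the log2 scale and was higher with PEI-SWNTs than with water (1.17).

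Markers of other cell types moved with the groups too. The 4 guard cell markers summed to 29.9 to 37.0 RPKM without infiltration, 21.0 to 26.1 with water, 21.2 to 25.0 with SWNTs and 18.1 to 20.8 with PEI-SWNTs, and 3, 3 and 4 of the 4 were lower in these 3 groups at an adjusted p under 0.05, with KAT1 at −1.17 and −1.55 with SWNTs and PEI-SWNTs. The 4 epidermis markers summed to 266 to 506, 457 to 496, 477 to 529 and 326 to 380 RPKM in the same order, of which CER6, a wax synthesis gene, made up the most, with group means of 339, 416, 444 and 318 RPKM. At any fold, 0, 1 and 0 of these 4 were higher and 1, 3 and 3 lower with water, SWNTs and PEI-SWNTs against non-infiltrated leaves. Of all genes, 16.4%, 21.6% and 30.4% were higher and 16.4%, 20.3% and 31.2% lower in these comparisons. These shares also stand beside the guard cell and mesophyll counts. PDF1 was lower in all 3 groups (−4.49, −3.09 and −2.99), ATML1 and PDF2 were lower with SWNTs (−0.45 and −0.42) and PEI-SWNTs (−0.76 and −0.65), and CER6 was higher with SWNTs (0.39). Each infiltrated group overlapped the non-infiltrated PDF1 samples through non-infiltrated replicate 3, which had 31 counts against 165 to 511 in the other non-infiltrated samples. The 4 vasculature markers summed to 84.2 to 108, 67.5 to 76.1, 76.4 to 89.7 and 81.2 to 98.1 RPKM. Of the 4 mesophyll markers, 2 were higher and 0 lower with water and with SWNTs at an adjusted p under 0.05 and any fold. With PEI-SWNTs, RCA (0.69) and LHCB1.1 (0.44) were higher and CA1 (−1.07) was lower. For RCA and LHCB1.1, every SWNT and every PEI-SWNT sample lay above every non-infiltrated one. The flower marker PI, noted after its values were seen, had 1.01 to 3.73 RPKM in PEI-SWNT treated leaves and at most 0.388 elsewhere, whereas AP3, AG and SEP3 had at most 0.414 RPKM. The part of cell composition in the XTH and expansin values was not tested.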

How the data were processed

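RNA from 20 leaf samples was sequenced, and per the study's methods reads were trimmed with Trimmomatic, aligned to the TAIR10 genome with HISAT2 at default settings and counted per gene. The submitters' processing notes name featureCounts 2.0.1 and edgeR 3.30.3. The table deposited by the authors holds raw counts, whole numbers per gene and sample, and a strand setting is not given in the sources used here. A second deposited table holds the authors' own log2 fold changes with their log2 average, test score and p-value columns. Those 7 columns were not used, and from that table only gene lengths were taken, for 139 genes. Samples were grouped by the deposited labels.

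The 44 members and all other gene lists were chosen with earlier results of these data known. Exon lengths came from the TAIR10.1 annotation (of 16068 lengths compared with the authors' own, 16064 were equal). Genes with an average of at least 1 RPKM over all 20 samples were kept (16288 of 37336 genes; 146 had no length). The 4 groups were fitted together with TMM scaling and edgeR's quasi-likelihood test (edgeR 4.0.16, limma 3.58.1, R 4.3.3), 1 contrast per pair of groups, with Benjamini-Hochberg adjustment over 16288 genes. Called genes had an adjusted p under 0.05 and a change of at least 2-fold. Intervals are 95%, and SDs of log2 counts scaled to library size used a prior count of 2. Tables and plots were made with Python 3.11.15, numpy 2.4.6, pandas 2.3.3 and matplotlib 3.10.9.

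Members given in every sample were the 2 largest rises and the 2 largest falls among those called in each comparison and the 3 of highest mean RPKM. XTH22 and EXLA1 were added after their values were seen. From the other lists, the called gene with the largest rise and the one with the largest fall were named. Alternatives were RLE size factors, DESeq2 1.42.0, no filter, only the 10 samples of a comparison, the replicate number as a block, a joint test of the 3 infiltrated groups, SWNTs replicates 3 and 4 merged, and leaving out each sample. The procedure was tested on simulated data for PEI-SWNT treated against non-infiltrated leaves, with 16288 genes: at 1.5-fold 49 of 70, at 2-fold 59 of 68 and at 4-fold 59 of 62 changed genes passed the adjusted p, and 6 of 16088 unchanged genes did. How many of these would also pass the 2-fold minimum was not tested. In the measured comparison, 30.4% of all genes were higher and 31.2% lower at an adjusted p under 0.05. Recovery with so many changed genes was not tested. A count of 0 allows up to 3 counts, and such limits cover counting error only. The leaves of a replicate came from different plants, so replicates are biological, but whether samples shared a growth batch is not given in the sources used here.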

Additional observations from a re-analysis of the deposited data

Results flagged for a closer look

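In 10 of 132 sets of 5 replicates, 1 sample of a gene lay apart from the other 4 (a gap to the nearest sample of more than 0.71 of the range), where chance gives about 1 in 20. SWNTs replicate 5 stood apart for 4 genes: XTH27 was high at 155 RPKM (80.5 to 98.2 in the other samples), EXPA11 high at 23.5 (20.2 to 21.0), EXLA2 high at 4.26 (3.37 to 3.61) and XTH22 low at 149 (174 to 181). Non-infiltrated replicate 3 was high for XTH7 (29.8 RPKM, others 14.1 to 18.1) and EXPA11 (36.9, others 19.6 to 24.2). Water replicate 3 was high for the alpha-expansins EXPA5 (18.7 RPKM, others 9.63 to 11.5) and EXPA9 (1.58, others 0.749 to 0.883). Water replicate 1 was high for XTH23 (14.2 RPKM, others 4.64 to 7.07) and SWNTs replicate 1 for XTH18 (6.19, others 3.79 to 4.41).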

How the results depend on the processing

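All 47 calls kept their direction under every alternative run. Between the lowest and highest fit with 1 sample left out, fold changes of called genes differed by up to 1.92 times (XTH23 with water against non-infiltrated leaves). With the replicate number as a block, 1 gene was lower with water against non-infiltrated leaves in place of 2 (XTH32, adjusted p = 0.0676). The block also left EXPA9 under 2-fold with SWNTs against non-infiltrated leaves (−0.999) and added the call of XTH19 with PEI-SWNTs (1.02, adjusted p = 0.0243), and it changed no other member's call. The count was also 1 with only the 10 samples compared, with SWNTs replicates 3 and 4 merged and by DESeq2. Same-numbered samples correlated above 0.1 in 9 of 30 pairs (median 0.030), values that cannot show whether they shared more than a number. The block left 2 of 47 calls short of a threshold, SWNTs replicates 3 and 4 merged 3, and DESeq2, RLE size factors, no filter and the 10 samples 1 each, while leaving out 1 sample did so in 43 of 470 fits. With 1 sample left out, the higher and lower genes numbered 4 to 6 and 1 to 3 for water, 8 to 8 and 2 to 5 for SWNTs and 6 to 8 and 5 to 9 for PEI-SWNTs against non-infiltrated leaves. They numbered 1 to 1 and 0 to 0 for SWNTs against water, 2 to 3 and 3 to 6 for PEI-SWNTs against water and 2 to 4 and 4 to 5 for PEI-SWNTs against SWNTs. The causes were not tested, beyond there being fewer samples in each of these fits.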
